A study of Mus musculus with 4 samples.

Results

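The genes described here encode the enzymes that activate fatty acids, carry them into the mitochondrion, oxidise them there and burn ketone bodies, and they were followed in the tibialis anterior muscle of mice with 1 or with 2 floxed alleles of Nf1, the gene of neurofibromin. The set was chosen by function: 35 genes named for their roles in acyl-CoA synthesis, the carnitine shuttle, beta-oxidation, electron transfer, thioesterase activity, uncoupling and ketolysis. Earlier results of these data were known when it was chosen. All 35 had a row above 0 in at least 1 library, out of 18959 named genes above 0 in the series. For testing, a gene had to reach 0.5 RPKM (reads per kilobase of gene and per unit of sequencing depth) in at least 2 libraries. This was met by 33 of the 35, while Cpt1b and Eci2 lay below it in every library.

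A long-chain fatty acid is first joined to coenzyme A, then passed to carnitine by CPT1 on the outer mitochondrial membrane, and released again as acyl-CoA by CPT2 on the inner one. Each turn of beta-oxidation removes an acetyl unit through a dehydrogenation, a hydration, another dehydrogenation and a thiolysis, and electrons from the first step reach the respiratory chain through the electron transfer flavoprotein. Malonyl-CoA inhibits CPT1, and oxidative muscle fibres rely on this pathway more than fast glycolytic ones. Ketone bodies made by the liver are turned back into acetyl-CoA in muscle by BDH1, OXCT1 and ACAT1.

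All 4 libraries were labelled C57BL/6 and came from total RNA of the tibialis anterior, the mainly fast-fibred muscle at the front of the shin, at postnatal day 21. The 2 Het libraries carried the genotype Nf1flox/+/Myf5+(Het) and the 2 Nf1-KO libraries Nf1flox/flox/Myf5+(KO). Both groups thus shared Myf5+ and at least 1 floxed allele, and there was no group without one. In crosses of this kind Myf5+ usually stands for a Cre driver of the myogenic lineage, but the labels do not spell it out. They do not say whether the libraries of a group came from separate animals, so p-values measure only the spread between these libraries, which may be technical.

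By the steps between low values, depth was about 36500000 to 58100000 reads per library, with the lowest and the highest value both in Het. In the authors' deposited table the mean normalized read count of the 35 genes ran from 19.4 for Eci2 to 33900 for Crat. Myofibre genes such as Ckm (5563 to 5938 RPKM) were abundant in every library, as the tissue label requires. Nf1 itself was 1.09 and 1.01 RPKM in Het and 0.89 and 0.85 RPKM in Nf1-KO (log2 fold change -0.18, standard error 0.0573, limma adjusted p 0.041). The value is over the whole gene, so it does not check the floxed part by itself. The call was lost with any 1 library left out: the limma adjusted p was 0.124 without Het 1, 0.058 without Het 2, 0.111 without Nf1-KO 1 and 0.176 without Nf1-KO 2. The authors' deposited table gave Nf1 a log2 fold change of -0.38 (adjusted p 0.0026). A bulk library holds the RNA of all cells of the muscle, so a change in the share of a cell type and a change of RNA per cell cannot be told apart.

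Most genes of fatty acid oxidation were higher in Nf1-KO. Of the 33 tested, 29 rose, 2 fell and 2 did not pass the threshold (limma, Benjamini-Hochberg adjusted p under 0.05 over all 10690 tested genes). Over all tested genes, 24.9% were called higher and 25.4% lower. The median log2 fold change of the 33 was 0.69, against 0.00 over all tested genes. Counting both directions, 31 of the 33 were called, where 50.3% of all tested genes were. Of the 33, 23 rose by more than 0.5 on the log2 scale, where 5.07% of all tested genes did. Fold changes are of scaled values on the log2(RPKM + 1) scale, so low genes changed by more than their fold change says, and the values given for each library are as deposited.

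Summed over the 35 genes, the level was 2143 and 2133 RPKM in Het and 3726 and 3721 RPKM in Nf1-KO. The Nf1-KO mean was 1.74 times the Het mean, before scaling between libraries. As deposited, both Nf1-KO libraries were above both Het libraries in 33 of the 35 genes, and below them in Acsl3 and Acsl6. For comparison, both Nf1-KO libraries were above both Het libraries in 49.8% of all tested genes, which leave out Cpt1b and Eci2. The share of all tested genes with both below was not counted. Replicates of the 33 tested genes lay close together, with a median coefficient of variation of 1.55% in Het and 0.612% in Nf1-KO. The widest of the 33 were Acsl5 in Het (9.59%) and Ucp2 in Nf1-KO (7.39%). All 21 genes with a Het mean of at least 20 RPKM rose, by 0.19 to 1.11 on the log2 scale. Of the 12 tested genes below that level, 8 rose and 2 fell, Acsl6 (Het mean 12.3 RPKM) and Acsl3 (4.29 RPKM). The limit of 20 RPKM was not planned, and the share of all tested genes at that level called higher was not counted.

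**Figure D1:**
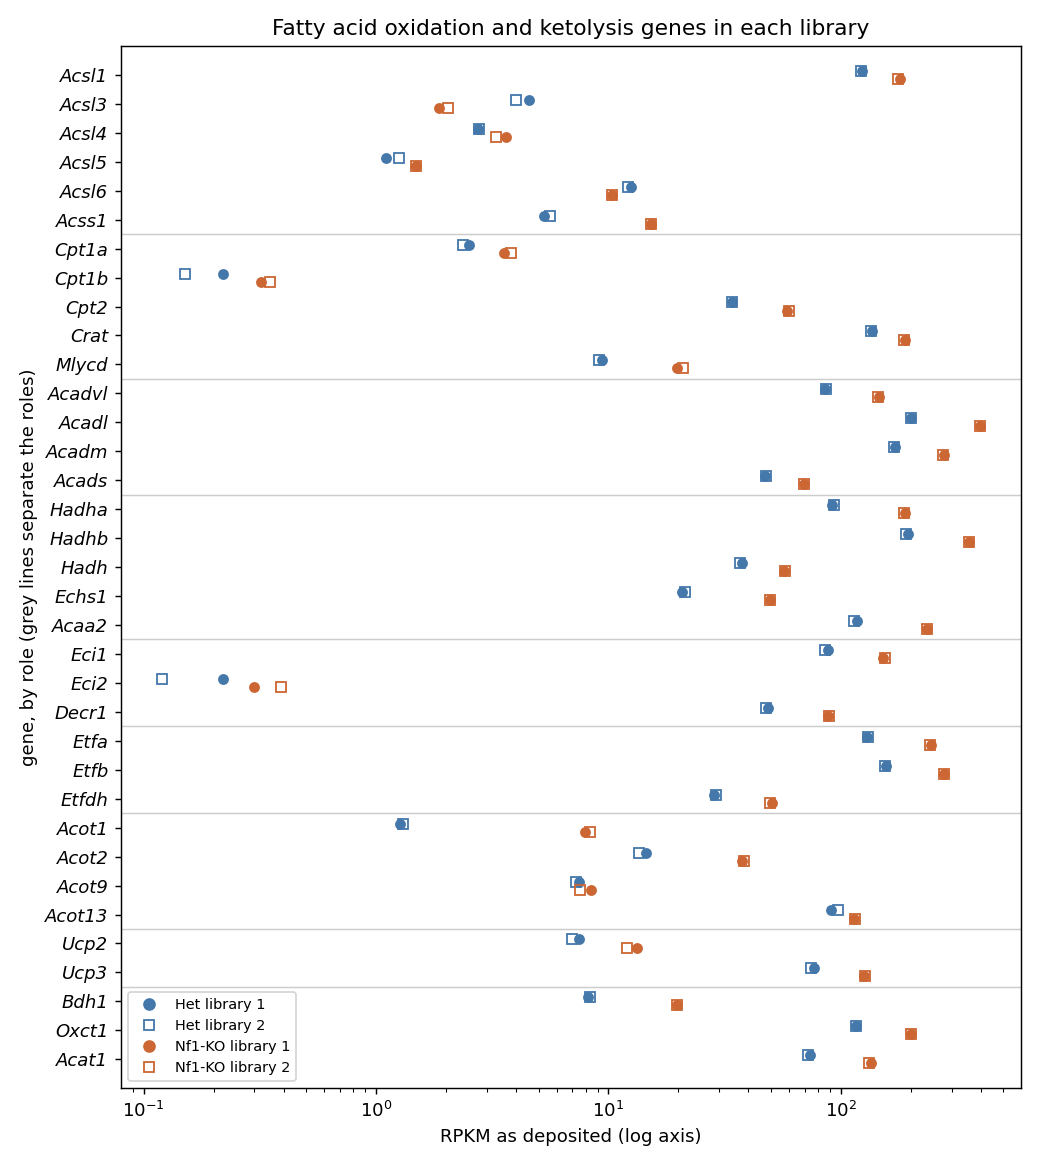
Level of each of the 35 genes (rows, grouped by role) in each of the 4 libraries, in RPKM as deposited on a log axis. The orange Nf1-KO points lie to the right of the blue Het points in 33 genes and to the left in Acsl3 and Acsl6, and Cpt1b and Eci2 are the only rows under 0.5 RPKM.

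The acyl-CoA synthetases, which activate fatty acids, were the role with changes in both directions: of 6 tested, 3 rose, 2 fell and 1 did not pass. Acsl1, the main long-chain synthetase of muscle and fat, was 123.11 and 121.40 RPKM in Het and 178.76 and 176.37 RPKM in Nf1-KO, a log2 fold change of 0.44. Acss1, which activates acetate inside the mitochondrion, was 5.30 and 5.60 RPKM in Het and 15.22 and 15.28 RPKM in Nf1-KO. The difference, as a log2 fold change, was 1.25 (standard error 0.0402, limma adjusted p 3.1e-06). Acsl1 and Acss1 were thus higher in both Nf1-KO libraries by far more than the replicates differed.

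Acsl3, a synthetase of the endoplasmic reticulum and lipid droplets, fell from 4.56 and 4.01 RPKM to 1.87 and 2.04 RPKM. The difference, as a log2 fold change, was -0.91 (standard error 0.0678, limma adjusted p 1.0e-04). Acsl6, a synthetase best known from brain, fell from 12.45 and 12.10 RPKM to 10.35 and 10.38 RPKM (log2 fold change -0.31, standard error 0.0348, limma adjusted p 5.8e-04). These were the 2 genes of the 33 that were called lower, and both were also called lower in the authors' deposited table. That table called 28 of the 35 genes higher, where it called 15% of its genes higher and 16.6% lower.

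Acsl4, which prefers arachidonic acid, was 2.75 and 2.76 RPKM in Het and 3.61 and 3.27 RPKM in Nf1-KO. Its log2 fold change of 0.17 passed narrowly (limma adjusted p 0.049), and it did not pass without Het 1 (0.143), without Het 2 (0.121) or without Nf1-KO 1 (0.228). With the replicate number as a block its limma adjusted p was 0.053, and the authors' deposited table gave 0.114. Acsl5 was 1.10 and 1.26 RPKM in Het, 1.48 RPKM in both Nf1-KO libraries, and did not pass (log2 fold change 0.13, standard error 0.0615, limma adjusted p 0.119). The 95% interval of that change ran from -0.02 to 0.28, and with values as deposited and not scaled it passed (0.19, limma adjusted p 0.042). Within the 5 Acsl genes, the share of the summed RPKM held by Acsl1 was 85.5% and 85.8% in Het and 91.2% and 91.1% in Nf1-KO. The share of Acsl6 was 8.65% and 8.55% in Het and 5.28% and 5.36% in Nf1-KO.

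**Figure D2:**
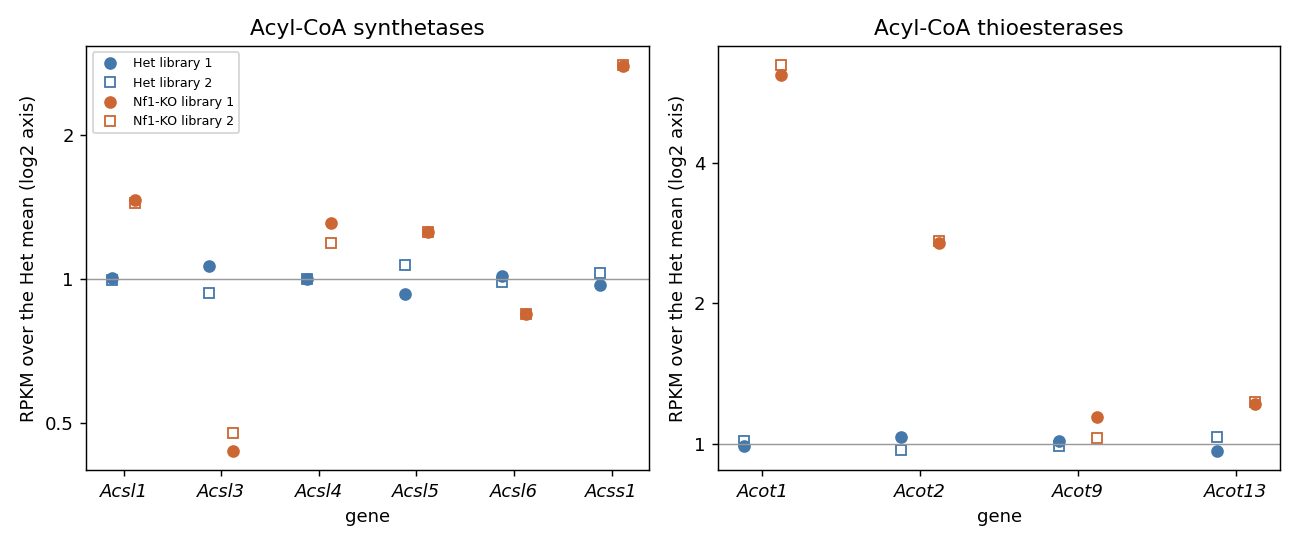
Level in each library divided by the Het mean of the gene, on a log2 axis, for the acyl-CoA synthetases (left) and the acyl-CoA thioesterases (right). Acss1 and Acot1 stand highest in Nf1-KO, Acsl3 and Acsl6 lie below the Het level, and Acot9 lies close to it.

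The carnitine shuttle and its control gene Mlycd all rose where they could be tested (4 of 4). Cpt2 was 34.15 and 33.93 RPKM in Het and 58.81 and 60.06 RPKM in Nf1-KO, a log2 fold change of 0.69. Crat, the carnitine acetyltransferase that buffers acetyl-CoA, was 135.95 and 135.07 RPKM in Het and 187.81 and 186.56 RPKM in Nf1-KO, a log2 fold change of 0.37. Mlycd, which breaks down the CPT1 inhibitor malonyl-CoA, was 9.36 and 9.10 RPKM in Het and 19.65 and 20.87 RPKM in Nf1-KO. The difference, as a log2 fold change, was 0.97 (standard error 0.0397, limma adjusted p 8.3e-06), the highest of this role.

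Of the CPT1 isoforms, Cpt1a, the liver type, was 2.50 and 2.37 RPKM in Het and 3.57 and 3.81 RPKM in Nf1-KO, a log2 fold change of 0.38. Cpt1b, the muscle type, was listed at only 0.22 and 0.15 RPKM in Het and 0.32 and 0.35 RPKM in Nf1-KO, and was not tested. This order is the opposite of what is known of muscle. A row with the joined name ChkbCpt1b was listed at 0 in all 4 libraries, and its neighbour Chkb at 0.01 RPKM in each Het library and 0.03 and 0.04 RPKM in Nf1-KO. In GENCODE M21, 93% of the 50-base stretches of the longest Cpt1b transcript also occur in Gm44502, an overlapping gene on the same strand. How the authors' counting treated reads in overlapping entries is not given in the sources used here, and whether it set the low value of Cpt1b was not tested.

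The 4 acyl-CoA dehydrogenases, which take the first step for chains of different length, all rose. Acadl, for long chains, was 199.34 and 200.19 RPKM in Het and 395.04 and 394.79 RPKM in Nf1-KO (log2 fold change 0.89, standard error 0.0171, limma adjusted p 5.1e-07). Acadvl, for very long chains, was 85.63 and 86.01 RPKM in Het and 145.88 and 144.37 RPKM in Nf1-KO, a log2 fold change of 0.66. For Acadvl, 24% of the 50-base stretches also occur in Dvl2, which overlaps it on the opposite strand. Acadm, for medium chains, was 170.58 and 169.32 RPKM in Het and 277.00 and 275.01 RPKM in Nf1-KO, a log2 fold change of 0.60. The intervals of Acadvl (0.61 to 0.71) and Acadm (0.56 to 0.65) overlapped, while that of Acadl (0.84 to 0.93) lay above both. Acads, for short chains, changed least of the 4, from 47.35 and 47.60 RPKM to 69.27 and 69.35 RPKM, with a log2 fold change of 0.44. Acadl was 4.21 times the level of Acads in both Het libraries, and 5.70 and 5.69 times in the Nf1-KO libraries.

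Every gene of the later steps rose as well (5 of 5). The mitochondrial trifunctional protein, which handles long chains, is made of the products of Hadha and Hadhb. Hadha was 91.93 and 93.09 RPKM in Het and 188.09 and 186.47 RPKM in Nf1-KO (log2 fold change 0.92, standard error 0.0203, limma adjusted p 8.2e-07). Hadhb was 194.89 and 191.40 RPKM in Het and 355.84 and 356.68 RPKM in Nf1-KO (log2 fold change 0.79, standard error 0.0184, limma adjusted p 1.0e-06). Both subunit genes therefore rose, though not quite in step: the ratio of Hadha to Hadhb was 0.472 and 0.486 in Het and 0.529 and 0.523 in Nf1-KO. For such a ratio the smallest p of an exact two-sided permutation test, at 2 libraries a group, is 0.333. Of the 50-base stretches of Hadhb, 62.4% also occur in other genes, chiefly in Gm13910.

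The 2 subunit genes face away from each other on chromosome 5, with start sites 273 bases apart (RefSeq, GRCm38.p6). The 250 bases before the start of Hadhb are printed because they lie between the 2 genes. They are on the plus strand at chr5:30155003-30155252, and the capitals mark the 228 bases that also belong to the 250 bases before Hadha.
Hadhb: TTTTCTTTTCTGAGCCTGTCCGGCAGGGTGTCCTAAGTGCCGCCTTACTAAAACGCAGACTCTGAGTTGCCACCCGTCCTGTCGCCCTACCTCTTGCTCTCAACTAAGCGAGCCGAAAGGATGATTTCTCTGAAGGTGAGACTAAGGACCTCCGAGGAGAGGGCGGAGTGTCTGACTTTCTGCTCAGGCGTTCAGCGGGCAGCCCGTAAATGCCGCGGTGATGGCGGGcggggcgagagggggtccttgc

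Echs1, the short-chain hydratase, was 20.77 and 21.39 RPKM in Het and 49.60 and 49.61 RPKM in Nf1-KO (log2 fold change 1.11, standard error 0.0278, limma adjusted p 1.3e-06). Acaa2, a thiolase of the last step, was 117.30 and 113.88 RPKM in Het and 234.30 and 233.56 RPKM in Nf1-KO (log2 fold change 0.92, standard error 0.0217, limma adjusted p 1.1e-06). Hadh, the short-chain hydroxyacyl-CoA dehydrogenase, was 37.39 and 36.84 RPKM in Het and 56.80 and 57.24 RPKM in Nf1-KO, a log2 fold change of 0.51. Echs1 had the highest fold change of the beta-oxidation enzymes, and Hadh the lowest of this role.

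Unsaturated chains need further enzymes. Of these, Eci1, an enoyl-CoA isomerase, was 87.88 and 85.51 RPKM in Het and 151.91 and 154.96 RPKM in Nf1-KO, a log2 fold change of 0.72. Decr1, the dienoyl-CoA reductase, was 48.70 and 47.43 RPKM in Het and 88.24 and 89.23 RPKM in Nf1-KO, a log2 fold change of 0.78. Both rose, while the isomerase Eci2 was listed at 0.22 and 0.12 RPKM in Het and 0.30 and 0.39 RPKM in Nf1-KO and was not tested. A row under the older symbol of Eci2, Peci, was listed at 0 in all 4 libraries.

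The electron transfer flavoprotein carries the electrons of the first step, and the genes of its 2 subunits and of its oxidoreductase all rose. Etfa was 129.30 and 130.81 RPKM in Het and 243.01 and 242.70 RPKM in Nf1-KO (log2 fold change 0.80, standard error 0.0188, limma adjusted p 1.0e-06). Etfb was 156.52 and 154.59 RPKM in Het and 276.65 and 276.95 RPKM in Nf1-KO, a log2 fold change of 0.73. Etfdh, which passes the electrons on to ubiquinone, was 28.50 and 28.94 RPKM in Het and 50.49 and 49.59 RPKM in Nf1-KO, a log2 fold change of 0.69. The ratio of Etfa to Etfb was 0.826 and 0.846 in Het and 0.878 and 0.876 in Nf1-KO. For Etfb, 67.3% of its 50-base stretches also occur in Gm45233, which overlaps it on the same strand.

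The thioesterases, which release free fatty acids from acyl-CoA, ran from 0.02 to 1.93 in log2 fold change: of 4 tested, 3 rose and 1 did not pass. Acot1, a cytosolic enzyme for long chains, was 1.27 and 1.30 RPKM in Het and 7.92 and 8.31 RPKM in Nf1-KO. Its log2 fold change of 1.93 was the highest of the 33 genes (standard error 0.0492, limma adjusted p 1.3e-06). Because Acot1 was low in Het, the pseudocount mattered: with 0.1 in place of 1 the log2 fold change was 2.48, and the authors' deposited table gave 2.55. Acot2, its mitochondrial neighbour on chromosome 12, was 14.49 and 13.57 RPKM in Het and 37.68 and 38.20 RPKM in Nf1-KO (log2 fold change 1.28, standard error 0.037, limma adjusted p 2.3e-06). Both were higher in each Nf1-KO library, and Acot2 went from 11.4 and 10.4 times the level of Acot1 in Het to 4.76 and 4.60 times in Nf1-KO.

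The 2 genes are close copies, and reads common to both leave their separate values uncertain. Of the 50-base stretches of their longest transcripts, 33.6% of Acot1 and 27.7% of Acot2 also occur in other genes, mostly in each other. Acot13, a small mitochondrial thioesterase, was 90.57 and 97.16 RPKM in Het and 114.08 and 115.40 RPKM in Nf1-KO, a log2 fold change of 0.19. It missed the threshold when no filter on low values was used (limma adjusted p 0.052). Acot9, another mitochondrial enzyme, was 7.46 and 7.26 RPKM in Het and 8.38 and 7.57 RPKM in Nf1-KO, and did not pass (log2 fold change 0.02, standard error 0.0539, limma adjusted p 0.811). Its 95% interval ran from -0.11 to 0.15, and it shares 20.2% of its 50-base stretches with Acot10.

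Both uncoupling proteins, carriers of the inner membrane whose muscle form UCP3 is tied to fatty acid use, rose. Ucp3 was 76.37 and 74.65 RPKM in Het and 125.76 and 126.34 RPKM in Nf1-KO, a log2 fold change of 0.64. Ucp2 was 7.50 and 6.97 RPKM in Het and 13.29 and 11.97 RPKM in Nf1-KO, a log2 fold change of 0.64. The level of Ucp3 relative to Ucp2 overlapped between the groups, at 10.2 and 10.7 in Het and 9.46 and 10.6 in Nf1-KO.

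All 3 genes of ketone body use rose. Bdh1, which turns hydroxybutyrate into acetoacetate, was 8.14 and 8.32 RPKM in Het and 19.65 and 19.64 RPKM in Nf1-KO (log2 fold change 1.07, standard error 0.0332, limma adjusted p 2.6e-06). Oxct1, which activates acetoacetate and is absent from liver, was 115.97 and 116.57 RPKM in Het and 201.17 and 200.22 RPKM in Nf1-KO, a log2 fold change of 0.69. Acat1, which splits the product to acetyl-CoA, was 73.58 and 72.08 RPKM in Het and 134.63 and 132.41 RPKM in Nf1-KO, a log2 fold change of 0.77. Bdh1, the least abundant of the 3, had the highest fold change.

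**Figure D3:**
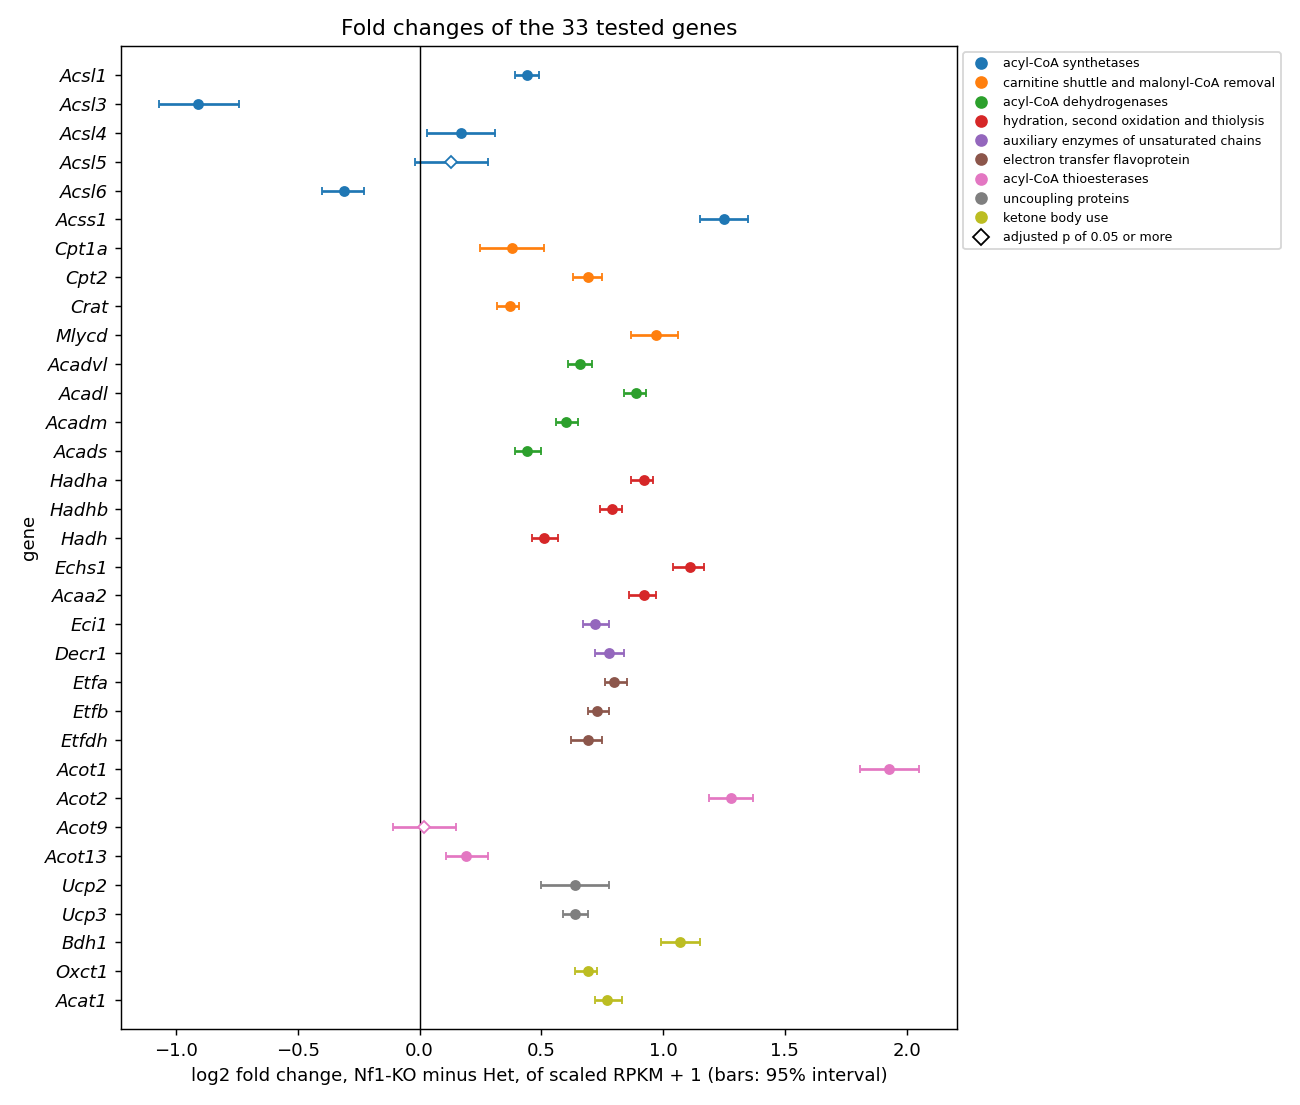
Log2 fold change (Nf1-KO minus Het, scaled RPKM + 1) with its 95% interval for each of the 33 tested genes, coloured by role. Acot1 lies farthest to the right at 1.93, Acsl3 farthest to the left at -0.91, and open diamonds mark Acsl5 and Acot9, which did not pass the threshold.

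A further list of 38 genes covers the rest of carnitine transport, beta-oxidation, acyl-CoA and ketone body metabolism. Of its 22 tested members, 14 rose and 3 fell, where 24.9% of all tested genes were called higher and 25.4% lower. Their median log2 fold change was 0.26, and 2 of the 38 (Ucp1 and Acot3) were listed at 0 in all libraries. Ech1, an isomerase for unsaturated chains, was 177.58 and 182.71 RPKM in Het and 382.76 and 387.58 RPKM in Nf1-KO, a log2 fold change of 1.00. Slc25a20, the carnitine-acylcarnitine carrier between CPT1 and CPT2, was 46.06 and 44.68 RPKM in Het and 83.67 and 80.90 RPKM in Nf1-KO, a log2 fold change of 0.75. Acaca, a maker of malonyl-CoA, rose from 1.11 and 1.25 RPKM to 2.25 and 2.17 RPKM, a log2 fold change of 0.50. Eci3, a close relative of Eci2, was 0.06 and 0.04 RPKM in Het and 0.57 and 0.99 RPKM in Nf1-KO, a log2 fold change of 0.73. Eci3 entered the test only through its Nf1-KO values. The 3 that fell, named here after their values were seen, were Crot (-0.35), Echdc2 (-0.30) and Acot7 (-0.18).

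Of 14 transcriptional regulators tied to fatty acid oxidation, 5 rose and 4 fell, with a median log2 fold change of 0.07. In the same fit 24.9% of all tested genes were called higher and 25.4% lower. With values as deposited and not scaled, 9 rose and 3 fell, and that setting called 35.2% of all tested genes higher and 17.6% lower. Ppara, the fatty acid receptor that drives many of these genes, rose from 3.71 and 3.97 RPKM to 8.73 and 8.57 RPKM, a log2 fold change of 0.92. Klf15, a factor of muscle lipid use, rose from 15.47 and 15.81 RPKM to 32.06 and 33.01 RPKM, also a log2 fold change of 0.92. Esrrb rose by 0.50, while the retinoid receptor gene Rxrg fell from 19.28 and 19.83 RPKM to 14.22 and 13.96 RPKM, a log2 fold change of -0.53.

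Genes of the TCA cycle and respiratory chain, which take up the products of beta-oxidation, are set beside the 33 genes as a description. Of 24 such genes, 23 rose and 1 (Idh3a) fell, with a median log2 fold change of 0.35 and a range of -0.07 to 0.61. The shares among all tested genes were 24.9% called higher and 25.4% lower. With values as deposited and not scaled, 23 were called higher and 0 lower. Idh3a changed sign there without being called, at 281.64 and 281.79 RPKM in Het and 283.63 and 287.96 RPKM in Nf1-KO. The summed level of the 24 was 9210 and 9082 RPKM in Het and 12612 and 12522 RPKM in Nf1-KO. Before scaling between libraries, the Nf1-KO mean was 1.37 times the Het mean. None of the 24 reached the median of the fatty acid oxidation genes, and 21 of the 33 fatty acid oxidation genes lay above the highest of the 24. The difference between the lists was not tested.

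**Figure D4:**
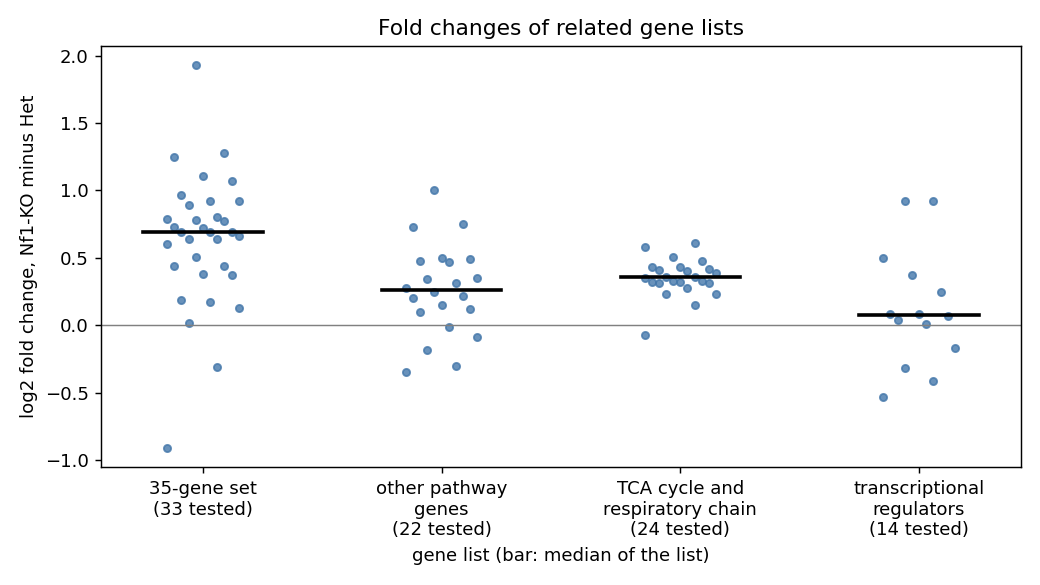
Log2 fold change (Nf1-KO minus Het) of every tested gene of 4 lists, with the median of each list as a bar: the fatty acid oxidation set, other genes of the pathway, genes of the TCA cycle and respiratory chain, and transcriptional regulators. The medians are 0.69, 0.26, 0.35 and 0.07.

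Sequences before the start sites were searched for the letters bound by receptors that act on this pathway. RefSeq windows of 300 bases (250 before to 50 after the start, GRCm38.p6) were found by symbol for 29 of the 35 genes, in 33 windows, and both strands were read. The direct repeat bound by PPAR with RXR (AGGTCA, 1 free base and AGGTCA again) was in 0 of the 33 windows as written, where 0.0396% of all 32851 windows hold it. With up to 2 mismatches it was in 3 of the 33 (Echs1, Etfa and Ucp3), against 3.86% of all windows. TCAAGGTCA, bound by oestrogen-related receptors, was in 1 of the 33, an upstream window of Acsl6, against 0.423% of all windows. A match is a description of letters and no evidence of binding.

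The 250 bases before the start are printed for the 4 genes with a match, which is in capitals. The Echs1 stretch is on the minus strand at chr7:140116422-140116671, and its match begins at -83 from the start site. The Etfa stretch is on the minus strand at chr9:55512244-55512493, and its match begins at -77 and reads on the opposite strand. The Ucp3 stretch is on the plus strand at chr7:100472741-100472990, and its match begins at -51. The Acsl6 stretch is on the plus strand at chr11:54303574-54303823, and its match begins at -167 and reads on the opposite strand. Echs1, Etfa and Ucp3 rose in Nf1-KO and Acsl6 fell.
Echs1: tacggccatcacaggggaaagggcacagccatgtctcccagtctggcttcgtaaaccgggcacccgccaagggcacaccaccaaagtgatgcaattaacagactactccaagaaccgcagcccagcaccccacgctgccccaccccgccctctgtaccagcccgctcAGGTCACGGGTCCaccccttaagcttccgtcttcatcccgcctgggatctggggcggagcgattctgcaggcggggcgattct
Etfa: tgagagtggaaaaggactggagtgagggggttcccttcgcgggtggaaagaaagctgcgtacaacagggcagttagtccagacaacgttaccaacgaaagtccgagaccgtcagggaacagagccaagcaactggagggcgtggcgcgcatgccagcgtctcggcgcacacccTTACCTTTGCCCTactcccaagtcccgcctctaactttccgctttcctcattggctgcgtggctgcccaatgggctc
Ucp3: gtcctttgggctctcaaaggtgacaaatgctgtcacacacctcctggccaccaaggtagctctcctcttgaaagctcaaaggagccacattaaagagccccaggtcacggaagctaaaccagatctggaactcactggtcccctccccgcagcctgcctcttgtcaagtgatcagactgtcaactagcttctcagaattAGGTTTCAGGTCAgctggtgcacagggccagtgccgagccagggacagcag
Acsl6: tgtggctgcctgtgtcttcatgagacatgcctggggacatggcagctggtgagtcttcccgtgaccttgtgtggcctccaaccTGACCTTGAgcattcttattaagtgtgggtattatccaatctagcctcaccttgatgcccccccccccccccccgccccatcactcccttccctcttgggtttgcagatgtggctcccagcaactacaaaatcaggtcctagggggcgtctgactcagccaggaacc

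Some markers of other cells and of fibre types differed between the groups as well, and their part in the results above was not tested. Of all tested genes 24.9% were called higher and 25.4% lower, and the sums below are of values as deposited, before scaling. Of 8 myofibre genes, 6 were lower and 2 higher, and Myh4, the fastest myosin, was 6767 and 7015 RPKM in Het and 3508 and 3428 RPKM in Nf1-KO. Myh1, another fast myosin, moved the other way, from 2354 and 2443 RPKM to 3712 and 3644 RPKM. Macrophage and leukocyte genes summed to 13.8 to 14.4 RPKM in Het and 37.3 to 37.6 RPKM in Nf1-KO, with 6 of 6 tested higher and Adgre1 (also under its older symbol Emr1) listed at 0. White adipocyte genes summed to 179 to 186 RPKM in Het and 267 to 269 RPKM in Nf1-KO, mostly Fabp4, with 3 of 4 tested higher. The defining Adipoq was not called, at 1.11 and 1.31 RPKM in Het and 0.95 and 1.05 RPKM in Nf1-KO, and Plin1 was 0.34 to 0.41 RPKM over all libraries. Lep, the leptin gene, was too low to be tested, at 0.21 and 0.22 RPKM in Het and 0.03 and 0.05 RPKM in Nf1-KO, and was called lower in the authors' deposited table (log2 fold change -2.40, adjusted p 0.0025). Of the brown adipocyte genes 2 of 2 tested were higher, Cidea and Ppargc1a, the latter also 1 of the 14 regulators above. The list summed to 7.16 to 7.65 RPKM in Het and 11.2 to 11.7 RPKM in Nf1-KO. Most of this was Ppargc1a, at 5.82 and 6.08 RPKM in Het and 8.46 and 8.56 RPKM in Nf1-KO. Elovl3 and Dio2 were too low to be tested, and Ucp1 was listed at 0 in every library. Schwann cell genes (7 of 7 higher) summed to 16.0 to 16.3 RPKM in Het and 35.1 to 36.8 RPKM in Nf1-KO. Fibroblast genes (5 of 7 higher) summed to 94.3 to 96.9 RPKM in Het and to 139 RPKM in both Nf1-KO libraries. Endothelial genes (3 higher and 2 lower of 8) had a median log2 fold change of -0.06. Their sums were 89.3 to 90.2 RPKM in Het and 97.6 to 99.4 RPKM in Nf1-KO. Of the cardiomyocyte genes only Myh6 could be tested and was higher, the list summing to 1.16 to 1.17 RPKM in Het and 2.41 to 2.52 RPKM in Nf1-KO, with Nppb and Myl7 listed at 0. Of the blood genes only Alas2 could be tested and it was not called. The list summed to 1.37 to 1.47 RPKM in Het and 1.62 to 1.78 RPKM in Nf1-KO, with 3 of 6 listed at 0. Those at 0 were the globin genes Hbb-b1, Hbb-b2 and Hba-a2, so the list does not measure the share of blood.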

How the data were processed

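RNA-seq of 4 libraries was used. The authors deposited 1 value per gene and library, read from the values as RPKM since no header names the unit, in 34682 rows. Per the submitters' processing notes STAR 2.4.2a, DESeq2 and mm9 were used; the counting program, the annotation and the use of strand are not given in the sources used here. A comparison table that the authors deposited has, per the file headers, a mean normalized count (a signal value), a log2 fold change and its standard error, a test score and a p-value before and after adjustment for 13985 rows. Its sign, read from the libraries' values, is Nf1-KO against Het.

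Rows named by a number (33) were left out, and a name with several rows was represented by its most abundant one, dropping 1781 rows and leaving 32868 names. Libraries were brought to 1 scale with trimmed means of log ratios, all genes weighing alike (factors 0.968, 0.967, 1.03 and 1.03) and log2(RPKM + 1) values were tested with limma 3.58.1 (R 4.3.3), allowing the variance to follow the level, two-sided, with Benjamini-Hochberg adjustment over all tested genes. The fit was checked on simulated data in which far fewer genes changed than were called here. That check does not cover the scaling or false calls when so many genes change. Because RPKM are not counts, no count test was run, and intervals cover the spread between libraries. Exon overlaps and shared 50-base stretches come from GENCODE M21 (GRCm38) and sequences from RefSeq (GRCm38.p6), a build other than the authors', so no positions of genes in the files are given. An exon of 16 of the 35 genes overlaps another annotated gene.

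The 35 genes and all lists, of the pathway, regulators, TCA cycle and cell types (myofibre, white and brown adipocyte, macrophage and leukocyte, endothelial, fibroblast, Schwann, cardiomyocyte and blood), were chosen with earlier results of these data known. Full statistics are given for the 12 genes of the set with the highest absolute log2 fold change, those called lower and those not called. Of the other pathway genes and regulators, those called with an absolute log2 fold change of at least 0.5 are named. The labels give no batch, so no within-batch values were possible. The alternatives were other pseudocounts, filters, scalings, variance models and thresholds, summed copies, a replicate block, each library left out, and the authors' deposited table.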

Additional observations from a re-analysis of the deposited data

How the results depend on the processing

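Of 715 values under 18 alternative settings, 677 kept their direction and their side of the threshold or moved little. Many of them had little room to move: the threshold settings reused the fold changes of the main fit, and settings such as summed copies hardly altered it. Among the 33 tested genes, 29 were called in every fit that tested them, Acot9 in none, and Acsl4, Acsl5 and Acot13 in some. The median log2 fold change of the set (0.69) was 0.70 with a pseudocount of 0.1 or 0.5, in the authors' deposited table, and when every library had to reach 1 RPKM, and 0.67 with no filter. It was 0.78 with values as deposited and not scaled, where the median of all tested genes was 0.07, and 3760 genes were called higher (35.2%) and 1883 lower (17.6%). With each library left out it ran from 0.68 to 0.71. With an absolute log2 fold change above 0.5 also required, 23 genes of the set were called higher and 1 lower, and 4 of the other pathway genes higher. Of all 10690 tested genes 1042 were called, with 5.07% of the 10690 called higher. That rule called 0 of the other pathway genes lower (limma; also 0 at an unadjusted p under 0.05). The authors' deposited table called 30 of the 35 genes, 28 higher and 2 lower, where it called 15% of its genes higher and 16.6% lower.

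Nf1 lost its call with no filter (-0.19), with values not scaled (-0.13) and with the replicate block (-0.18). With each library left out its log2 fold change ran from -0.21 to -0.15. It kept its call with a pseudocount of 0.1 (-0.33, limma adjusted p 0.045) and in the authors' deposited table (-0.38, adjusted p 0.0026). The cause was not tested. Acot9 turned to -0.0038 without Het 2 and -0.04 without Nf1-KO 1, and with each library left out ran from -0.04 to 0.09. A fit that leaves an arm with 1 library assumes that it varies like the other group. Same-numbered libraries did not deviate together (correlation of deviations -0.018 over 10690 genes). In the paired fit (replicate block), 28 genes of the set were called higher and 2 lower, Acsl4 being lost, and 5352 of all genes were called. Few reads were counted for Cpt1b and Eci2, with mean normalized counts of 35.3 and 19.4 in the authors' deposited table. Whether depth or the treatment of overlapping entries set these low counts was not tested.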
